A study of Mus musculus with 6 samples.

Results

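The genes described here encode 10 transporters that carry neutral amino acids, cationic amino acids or cystine across the plasma membrane. They are the light chain genes Slc7a5, Slc7a6 and Slc7a11 and their shared heavy chain gene Slc3a2, the cationic amino acid transporter gene Slc7a1, the facilitator gene Slc43a1, the neutral exchanger genes Slc1a4 and Slc1a5, and the sodium-coupled transporter genes Slc38a1 and Slc38a2. They were listed by symbol, with earlier results of these data known, and all 10 were found among the 54532 genes of the deposited table. All 10 passed the filter on low counts. The RNA came from Th17 cells, the IL-17 producing class of helper T cells, made in culture from naive CD4 T cells of C57BL/6 mice aged 6 to 10 weeks. The WT group (3 libraries) came from wild-type mice. The GOT1-/- group (3 libraries) came from mice whose T cells lack GOT1, the cytosolic aspartate transaminase. Cells of both genotypes were stimulated through CD3 (coated antibody) and CD28 (soluble antibody) in the same Th17 medium, which held TGFβ, IL-6, IL-1β and IL-23 with blocking antibodies against IL-4 and IFNγ, and RNA was taken on day 4. The labels do not name the Cre driver, the deleted part of Got1, the sex of the mice behind each library, or whether the replicates came from separate mice. The p-values therefore reflect no more than how these libraries varied, and that variation may be technical.

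A T cell that has been activated depends on imported amino acids for protein synthesis and for growth signalling through mTORC1. The SLC3A2 heavy chain, known on T cells as CD98, is joined by a disulphide bond to one of several light chains and brings it to the cell surface. The light chain decides the cargo: SLC7A5 (LAT1) exchanges leucine and other large neutral amino acids, SLC7A6 exchanges arginine against neutral amino acids, and SLC7A11 (xCT) takes up cystine in exchange for glutamate. SLC1A5 and SLC38A1 and SLC38A2 carry small neutral amino acids, glutamine among them. When amino acids are scarce, the transcription factor ATF4 is known to raise many of these transporter genes.

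Total counts were 16463752 to 22541410 per library. Got1 fell from 168 ± 4.59 CPM (counts scaled to 1000000 per library, SD, n = 3) in WT to 16.2 ± 1.25 CPM (n = 3) in GOT1-/- cells, a 10.4-fold decrease. Mitochondrial genes took 1.56 to 1.88% of counts in WT and 1.1 to 1.14% in GOT1-/- libraries, and the part of this difference in the results was not tested. The T cell genes Cd3d, Cd3e, Cd3g and Cd4 lay between 222 and 692 CPM in every library, and Il17f, which encodes a Th17 cytokine, between 982 and 1129 CPM. Over the table, the quasi-likelihood test of edgeR, with p-values adjusted by Benjamini-Hochberg and calls made at an adjusted p under 0.05, called 5643 of 12873 genes, or 43.8%. It called 22.9% higher and 21% lower in GOT1-/- cells, and in 53.4% of genes the genotypes did not overlap (27.7% with every GOT1-/- library above, 25.8% with every one below). Fold changes followed gene length across protein-coding genes (Spearman's rho -0.397 over 11526 genes that share the same libraries, given as a description). Each transporter is therefore also given after a correction that removes each library's smooth trend over length.

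Of the 10 transporter genes, 6 were called higher and 2 lower in GOT1-/- cells, and 2 were not called. Their median log2 fold change was 0.38, against 0.01 over all genes tested, and their median absolute log2 fold change was 0.45, against 0.27. The 8 of 10 stand beside a call in 43.8% of all genes, the transporters were picked with earlier results of these data known, and no test of the group was made. After the length correction the same test called 6 transporters higher and none lower, beside 22.3% and 18.2% of all genes, and so did the correction for length and GC content together, beside 22.4% and 18.7%. With the length correction alone, the log2 fold change was 0.57 for Slc3a2, 1.31 for Slc7a11, 0.45 for Slc1a4 and 0.48 for Slc1a5, each called, and -0.09 for Slc7a6 and 0.24 for Slc43a1, not called. In bulk RNA, fewer cells of a type and less RNA per cell cannot be told apart.

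**Figure D1:**
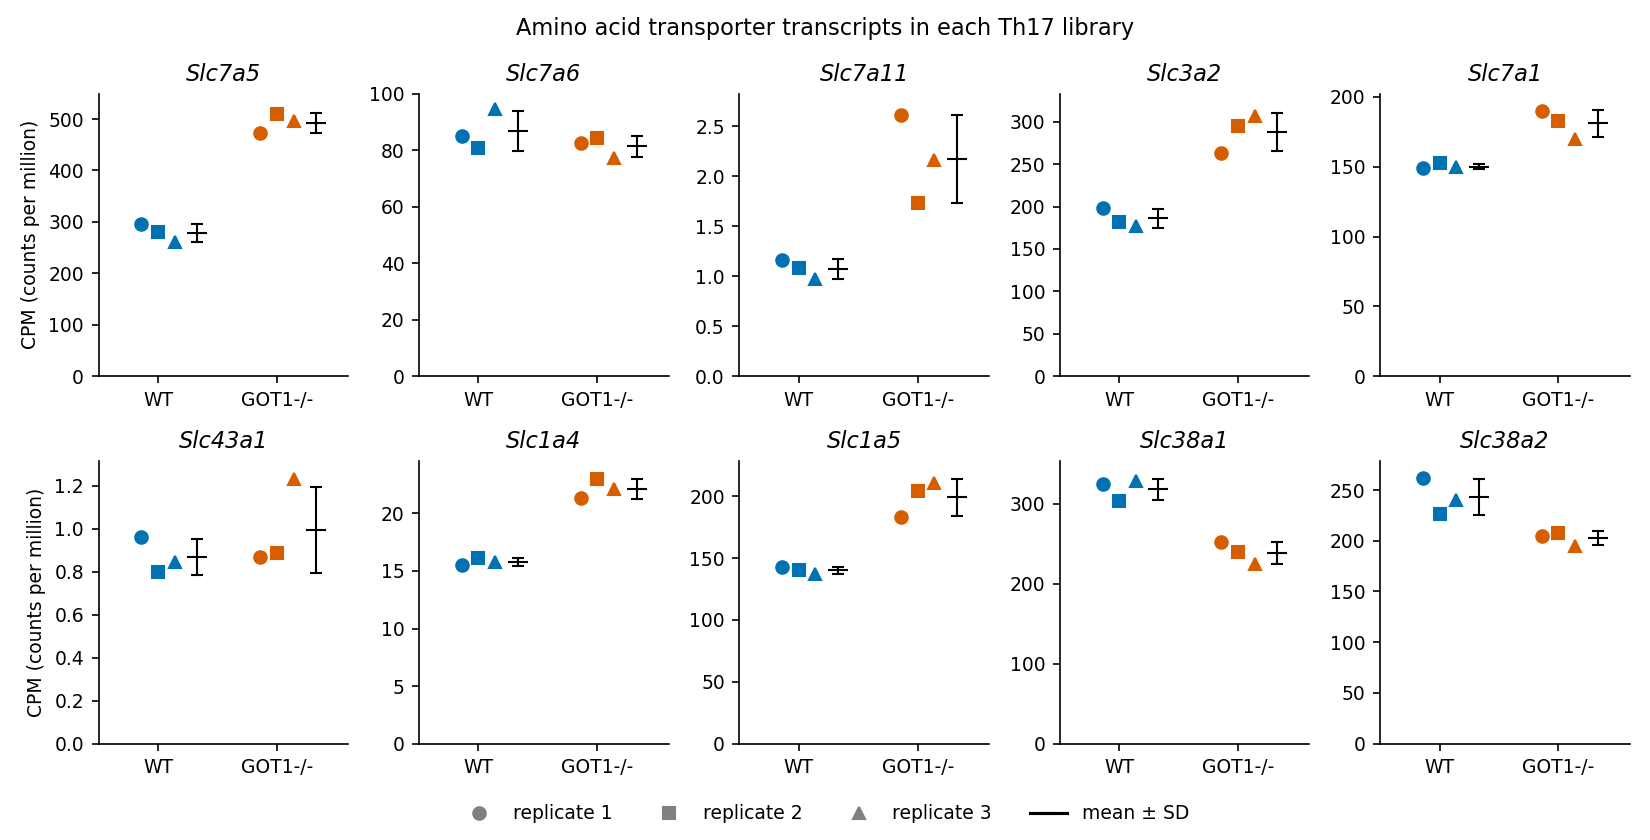
Level of each transporter transcript in CPM (vertical axes, each from 0) in the 3 WT and 3 GOT1-/- libraries, with a symbol per replicate and the mean ± SD in black. Slc7a5, Slc7a11, Slc3a2, Slc7a1, Slc1a4 and Slc1a5 lie higher in every GOT1-/- library than in any WT library, Slc38a1 and Slc38a2 lie lower, and Slc7a6 and Slc43a1 overlap.

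The leucine transporter rose with its partner. Slc7a5 (ENSMUSG00000040010, chromosome 8, 121881150 to 121907694 on GRCm38, minus strand, 10 exons in its principal transcript) read 296, 281 and 260 CPM across WT replicates 1 to 3, against 472, 509 and 496 CPM across GOT1-/- replicates 1 to 3. The lowest GOT1-/- library was well above the highest WT library. The change was 1.76-fold (log2 fold change 0.82 with SE 0.07; edgeR adjusted p = 1.94e-07 with Benjamini-Hochberg adjustment), and 0.77 on the log2 scale after the length correction. The heavy chain gene Slc3a2 (ENSMUSG00000010095, chromosome 19, 8706882 to 8723369, minus strand, 9 exons) read 198, 182 and 177 CPM across WT replicates 1 to 3, against 263, 295 and 307 CPM across GOT1-/- replicates 1 to 3. All GOT1-/- libraries again exceeded all WT libraries, and the rise was 1.55-fold (log2 fold change 0.63 with SE 0.07; edgeR adjusted p = 4.73e-06).

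The other light chains did not share one course. Slc7a6 (ENSMUSG00000031904, chromosome 8, 106168857 to 106198706, plus strand, 10 exons), the arginine exchanger, read 85, 80.8 and 94.5 CPM across WT replicates 1 to 3, against 82.7, 84.3 and 77.3 CPM across GOT1-/- replicates 1 to 3. The groups overlapped and the gene was not called (log2 fold change -0.09 with SE 0.08; edgeR adjusted p = 0.374; 0.245 to 0.802 over all alternatives). The cystine transporter gene Slc7a11 (ENSMUSG00000027737, chromosome 3, 49892526 to 50443614, minus strand, 12 exons) was scarce, with 23, 23 and 16 counts in WT and 54, 39 and 37 counts in GOT1-/- replicates 1 to 3. These counts correspond to 1.16, 1.08 and 0.967 CPM and to 2.61, 1.73 and 2.16 CPM, so every GOT1-/- library was above every WT library. Its rise was the largest of the 10 in ratio and the least precise of those called (log2 fold change 1.00 with SE 0.28; edgeR adjusted p = 0.00724; 0.000588 to 0.0418 over all alternatives). Summed over the libraries of a genotype, 62 counts in WT gave 1.08 CPM (exact Poisson 95% interval 0.829 to 1.39) and 130 counts in GOT1-/- cells gave 2.14 CPM (1.79 to 2.54), intervals that cover counting error only.

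Taken per length, the ratio of light chain to heavy chain transcripts overlapped between the genotypes, while the share of Slc7a5 among the light chains did not. The light chain genes known to pair with Slc3a2 (Slc7a5, Slc7a6, Slc7a7, Slc7a8, Slc7a10 and Slc7a11) summed to 99.2, 94.2 and 91.8 CPM per kilobase of deposited gene length across WT replicates 1 to 3, against 147, 157 and 152 across the GOT1-/- ones. Divided by the level of Slc3a2, these sums were 1.77, 1.82 and 1.83 across WT replicates 1 to 3, against 1.96, 1.88 and 1.75 across the GOT1-/- ones, which overlap. The size of such ratios depends on the length used. Per kilobase of principal transcript, a measure chosen after seeing the data, Slc3a2 stood above Slc7a5. The means were 102 against 79.3 CPM per kilobase in WT and 159 against 140 in GOT1-/- cells. Slc7a5 made up 80.4, 80.4 and 76.5% of the light chain sum in WT and 86.8, 87.5 and 87.9% in GOT1-/- libraries, so its share was higher in each GOT1-/- library than in any WT library. No count of Slc7a10, a neutral amino acid exchanger gene, was recorded in any library.

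Ratios within a library do not depend on how libraries are scaled, and 5 of them were compared, per deposited gene length. Slc7a5 over Slc3a2 was 1.42, 1.47 and 1.40 across WT replicates 1 to 3, against 1.70, 1.64 and 1.54 across the GOT1-/- ones. The groups were apart (difference 0.19 on the log2 scale, SE 0.05). Slc7a6 over Slc3a2 was 0.331, 0.342 and 0.412 across WT replicates 1 to 3, against 0.243, 0.221 and 0.194 across the GOT1-/- ones, also apart (-0.72, SE 0.135). Slc7a11 over Slc3a2 overlapped between genotypes (0.37, SE 0.22), and the difference was 0.745 between the length-corrected fold changes. For Slc7a5 over Slc3a2 that value was 0.197, and 0.355 on principal transcript length. The exact two-sided permutation test cannot go below 0.10 with 3 libraries against 3. That exact test gave p = 0.1 for each of the first 2 ratios and 0.2 for the last, or 0.167, 0.167 and 0.25 adjusted over the 5 ratios.

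**Figure D2:**
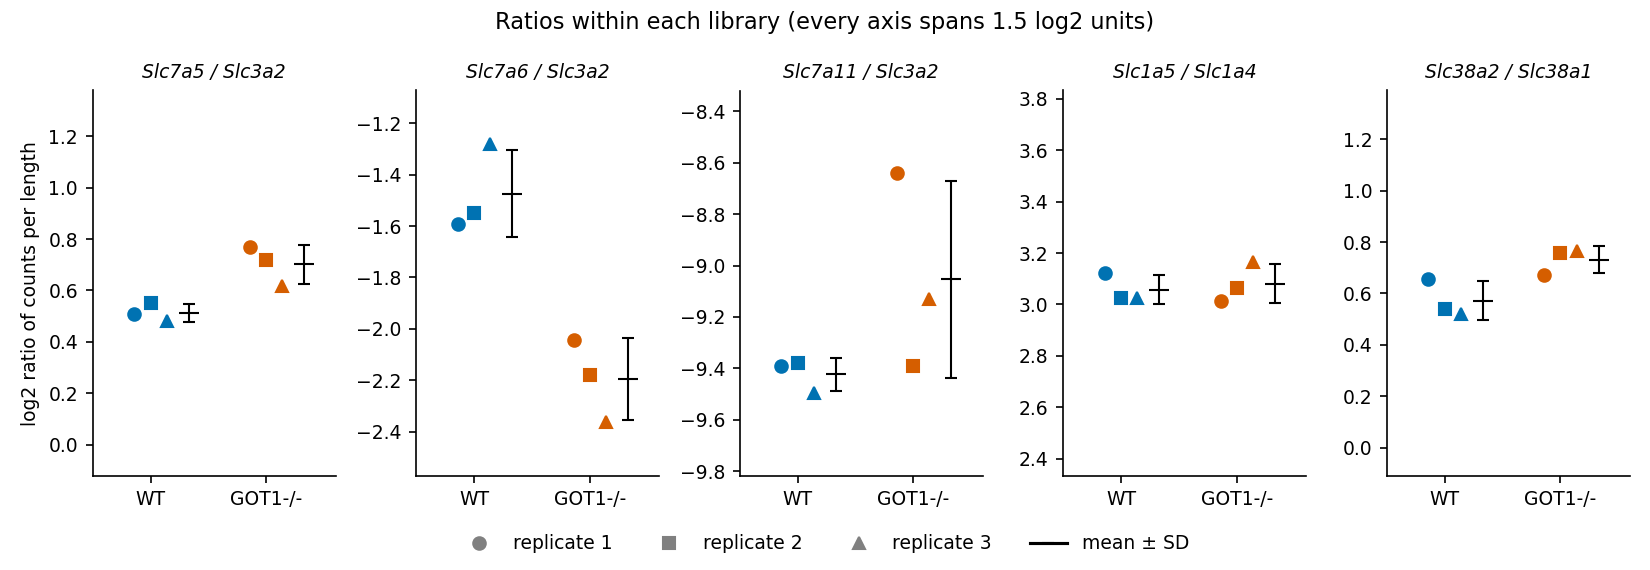
Log2 ratio of counts per deposited gene length within each library for 5 pairs of transporter genes, with a symbol per replicate and the mean ± SD in black; every vertical axis spans 1.5 log2 units. Slc7a5 over Slc3a2 is higher and Slc7a6 over Slc3a2 lower in all 3 GOT1-/- libraries, whereas Slc1a5 over Slc1a4 overlaps.

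Of the alanine, serine and glutamine carriers of the SLC1 family, both transcripts rose. Slc1a5 (ENSMUSG00000001918, chromosome 7, 16781340 to 16798274, plus strand, 9 exons), the glutamine exchanger gene, read 143, 140 and 137 CPM across WT replicates 1 to 3, against 183, 204 and 211 CPM across GOT1-/- replicates 1 to 3. Its groups did not overlap, and the rise was 1.42-fold (log2 fold change 0.51 with SE 0.07; edgeR adjusted p = 2.65e-05). Slc1a4 (ENSMUSG00000020142, chromosome 11, 20302180 to 20332713, minus strand, 8 exons), whose product exchanges alanine, serine and cysteine, read 15.5, 16.1 and 15.8 CPM across WT replicates 1 to 3, against 21.3, 23 and 22.1 CPM across GOT1-/- replicates 1 to 3. Every GOT1-/- library was above every WT library, and the rise was 1.4-fold (log2 fold change 0.49 with SE 0.09; edgeR adjusted p = 0.000443). The ratio of Slc1a5 to Slc1a4 per length was 8.71, 8.15 and 8.14 across WT replicates 1 to 3, against 8.08, 8.36 and 8.96 across the GOT1-/- ones (difference 0.02 on the log2 scale, SE 0.06, exact permutation p = 0.7, adjusted p = 0.7).

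The promoters of these genes were searched for the element that ATF4 and C/EBP proteins bind in amino acid response genes, since several of the transporters rose together. RefSeq windows (GRCm38.p6, 250 bases before to 50 after a start site) were matched for 7 of the 10 genes: Slc7a11, Slc1a4, Slc3a2, Slc7a1, Slc7a6, Slc38a2 and Slc43a1. The letters searched were TGATGNAA on both strands, which occur in 1304 of all 32851 windows, or 3.97%. They occurred in the windows of 2 of the 7 genes, which have 9 windows together, so the share of all windows is not a share of genes. Slc7a11 holds 2 copies on opposite strands, at bases -66 to -59 and -47 to -40 from the start site, and Slc1a4 holds 1 copy that crosses its start site, from base -4 to base 4. These windows and that of the heavy chain gene Slc3a2, which rose and holds no such match, are printed from 250 bases before the start to 10 after it, in the direction of transcription, with the matched letters in capitals.
Slc7a11 (chr3:50443604-50443863, minus strand): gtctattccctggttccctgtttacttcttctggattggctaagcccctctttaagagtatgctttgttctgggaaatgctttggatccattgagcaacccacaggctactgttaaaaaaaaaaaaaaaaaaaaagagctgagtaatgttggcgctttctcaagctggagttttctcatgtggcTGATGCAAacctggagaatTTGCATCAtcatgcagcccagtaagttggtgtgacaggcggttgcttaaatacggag
Slc1a4 (chr11:20332704-20332963, minus strand): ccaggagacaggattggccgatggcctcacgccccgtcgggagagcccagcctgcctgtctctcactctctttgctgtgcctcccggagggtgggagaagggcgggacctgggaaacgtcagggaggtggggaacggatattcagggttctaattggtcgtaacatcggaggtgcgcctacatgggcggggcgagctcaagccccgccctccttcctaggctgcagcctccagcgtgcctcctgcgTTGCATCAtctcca
Slc3a2 (chr19:8713888-8714147, minus strand): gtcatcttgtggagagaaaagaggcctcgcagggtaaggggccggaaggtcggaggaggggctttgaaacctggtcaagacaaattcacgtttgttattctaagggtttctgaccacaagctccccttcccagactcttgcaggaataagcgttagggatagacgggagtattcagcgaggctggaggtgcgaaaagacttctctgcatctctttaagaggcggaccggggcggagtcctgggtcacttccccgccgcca

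A match is a stretch of letters and not a measured binding site, and its absence from a window says nothing of the factor. The Slc3a2 window was the only one searched for that gene. It lies inside the deposited span of the gene, which runs to base 8723369 on the minus strand. Of the pair of genes with matches, Slc7a11 and Slc1a4 both rose, as did Slc3a2 and Slc7a1 without one. Also without one, Slc7a6 and Slc43a1 were not called, and Slc38a2 was called lower as deposited. Slc7a5, Slc1a5 and Slc38a1 had no window. The letters of the antioxidant response element bound by NRF2, TGACNNNGC on both strands, occurred in the windows of Slc7a1, Slc7a6, Slc38a2 and Slc43a1 and in 12.4% of all windows. The E-box bound by MYC, CACGTG, occurred in that of Slc43a1 and in 7.15% of all windows.

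The cationic transporter gene also rose. Slc7a1 (ENSMUSG00000041313, chromosome 5, 148327410 to 148399904, minus strand, 13 exons), which encodes the main arginine and lysine carrier CAT-1, read 149, 153 and 150 CPM across WT replicates 1 to 3, against 190, 183 and 170 CPM across GOT1-/- replicates 1 to 3. The WT libraries were nearly equal and all GOT1-/- libraries were higher. The rise was 1.2-fold (log2 fold change 0.27 with SE 0.07; edgeR adjusted p = 0.00407; at most 0.0329 over all alternatives). Slc7a1 is long, at 11530 bases as deposited, and after the length correction its log2 fold change was 0.54 (SE 0.06, adjusted p = 1.92e-06 by edgeR). Slc43a1 (ENSMUSG00000027075, chromosome 2, 84838850 to 84863594, plus strand, 14 exons), a facilitator of large neutral amino acids, had 19, 17 and 14 counts in WT and 18, 20 and 21 counts in GOT1-/- replicates 1 to 3. The groups overlapped at 0.798 to 0.961 and 0.869 to 1.23 CPM, and no change was detectable at this depth (log2 fold change 0.18 with SE 0.33; edgeR adjusted p = 0.686; 0.59 to 0.98 over all alternatives).

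The sodium-coupled transporters went the other way as the counts were deposited, but not after the length corrections. Slc38a1 (ENSMUSG00000023169, chromosome 15, 96571418 to 96642913, minus strand, 16 exons) read 324, 303 and 328 CPM across WT replicates 1 to 3, against 252, 240 and 224 CPM across GOT1-/- replicates 1 to 3. All GOT1-/- libraries were lower, by 25% on average (log2 fold change -0.42 with SE 0.07; edgeR adjusted p = 0.00013). Its neighbour Slc38a2 (ENSMUSG00000022462, chromosome 15, 96687392 to 96699730, minus strand, 16 exons), a known target of amino acid starvation, read 262, 226 and 240 CPM across WT replicates 1 to 3, against 205, 208 and 195 CPM across GOT1-/- replicates 1 to 3. These groups did not overlap either (log2 fold change -0.26 with SE 0.07; edgeR adjusted p = 0.00661).

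Both are long, with 17236 and 8838 bases as deposited, against a median of 4121 bases over the genes tested. With the length correction the log2 fold change of Slc38a1 was -0.041 (SE 0.06, adjusted p = 0.619 by edgeR) and that of Slc38a2 was -0.062 (SE 0.06, adjusted p = 0.474). With length and GC content together they were -0.064 (adjusted p = 0.38) and -0.001 (adjusted p = 0.992) by edgeR. The deposited lengths equal the summed exons of all annotated transcripts, and the principal transcripts are shorter, at 7266 and 4660 bases. A correction on principal transcript length, chosen after seeing the data, gave -0.135 (adjusted p = 0.0627) for Slc38a1 and -0.12 (adjusted p = 0.141) for Slc38a2. Under these corrections neither gene was called. Slc38a2 over Slc38a1 per length was 1.58, 1.45 and 1.43 across WT replicates 1 to 3, against 1.59, 1.69 and 1.70 across the GOT1-/- ones (difference 0.16 on the log2 scale, SE 0.05, exact permutation p = 0.1, adjusted p = 0.167), and this difference was -0.021 between the length-corrected fold changes.

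**Figure D3:**
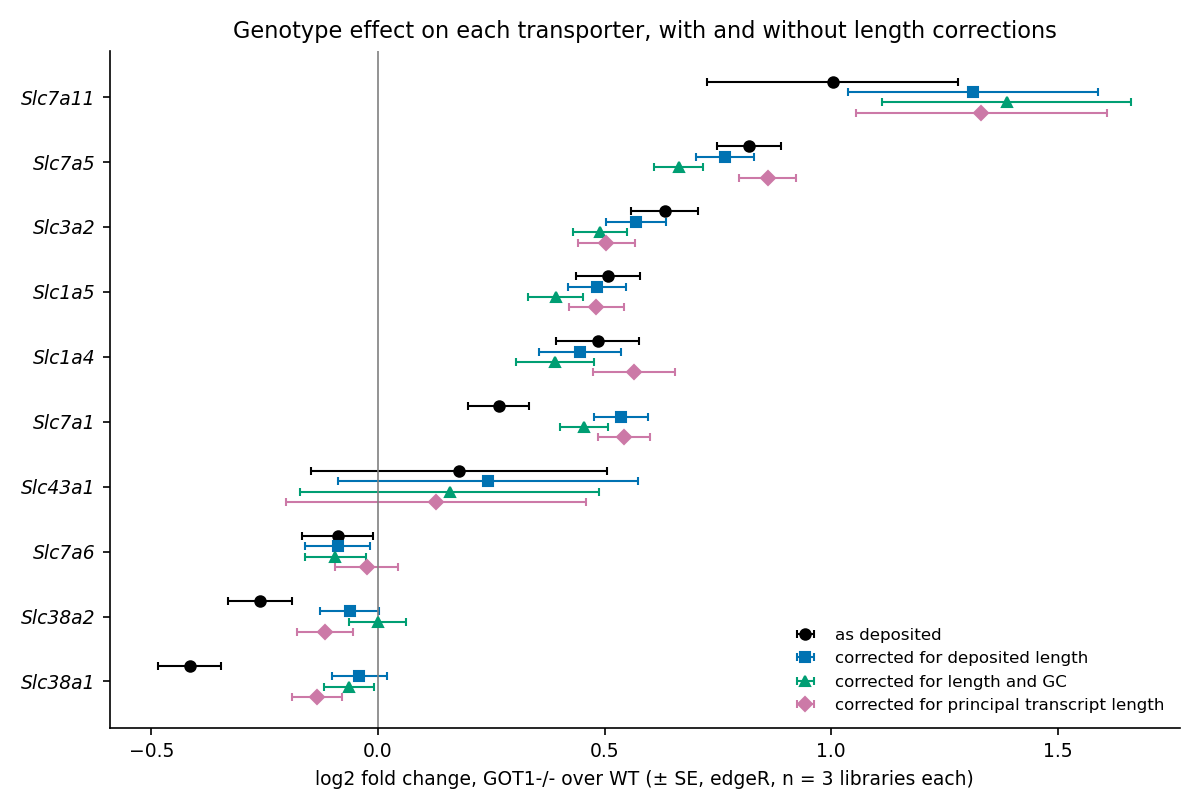
Log2 fold change of GOT1-/- over WT (horizontal axis, points with SE from edgeR, n = 3 libraries each) for each transporter gene, as deposited and after 3 corrections for length. The genes called higher stay to the right of 0 under each correction, and Slc38a1 and Slc38a2 move from -0.42 and -0.26 to between -0.135 and -0.001.

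Ordered by CPM per kilobase of deposited gene length, Slc7a5 led in WT at 75.2 ± 4.79 (SD, n = 3), followed by Slc3a2 at 52.7 ± 3.06, Slc1a5 at 33.6 ± 0.745 and Slc38a2 at 27.5 ± 2.03. Slc7a6 at 19 ± 1.54 and Slc38a1 at 18.5 ± 0.754 overlapped and were not ordered beyond their spread. Slc7a1 at 13.1 ± 0.167 and Slc1a4 at 4.03 ± 0.0858 came next, and Slc43a1 and Slc7a11 were far lower, at 0.152 ± 0.0146 and 0.0768 ± 0.00706. The same genes led in GOT1-/- cells, with Slc7a5 at 133 ± 5.12, Slc3a2 at 81.7 ± 6.4 and Slc1a5 at 47.8 ± 3.52. There Slc7a1, at 15.7 ± 0.84, was above Slc38a1, at 13.8 ± 0.816, and the ranges of Slc43a1 and Slc7a11 overlapped. Per kilobase of the principal transcript, a measure chosen after seeing the data, Slc3a2 came before Slc7a5 in both genotypes, and only 4 of 10 genes kept their place in the WT order.

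**Figure D4:**
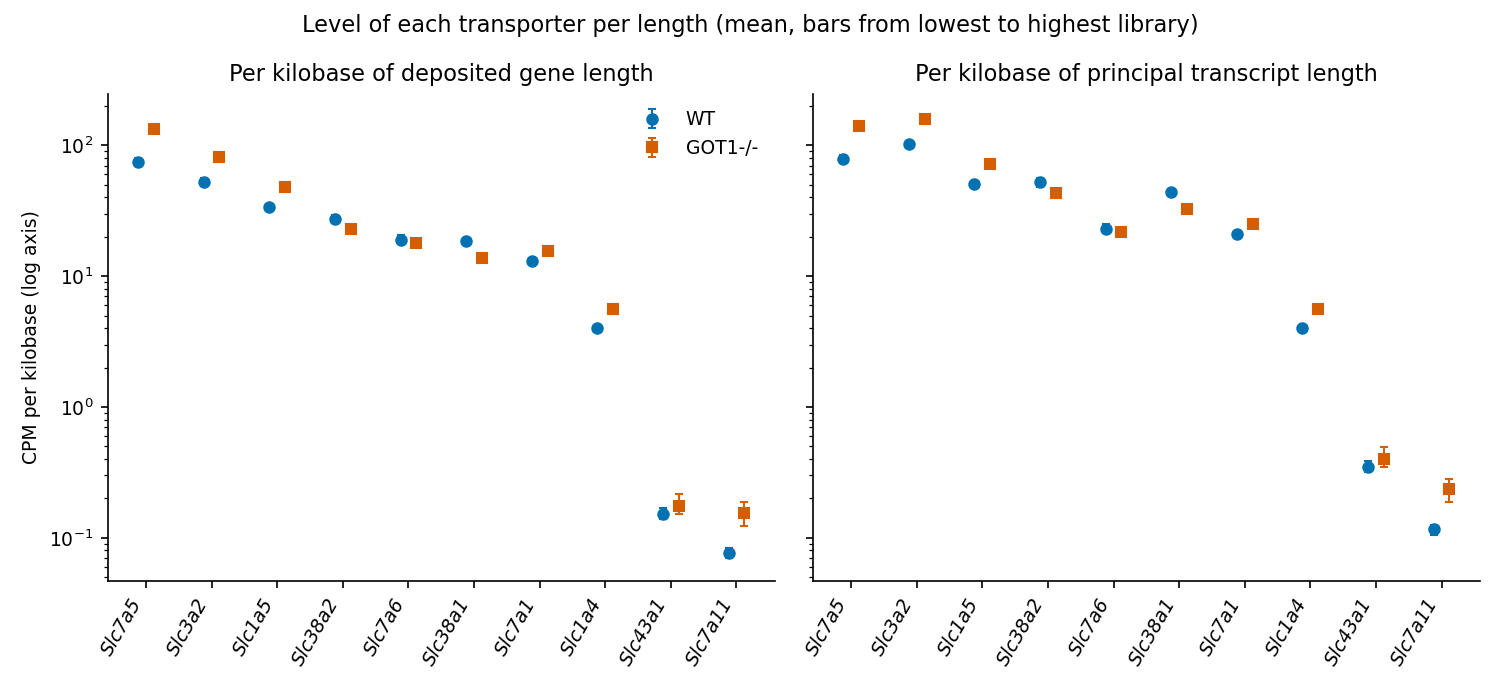
CPM per kilobase of each transporter transcript (log axis) in WT and GOT1-/- cells, on the deposited gene length (left) and on the principal transcript length (right); points are means and bars run from the lowest to the highest library. Slc7a5 and Slc3a2 are the highest on either length and Slc43a1 and Slc7a11 the lowest.

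The sum over the 10 genes was 254, 239 and 237 CPM per kilobase across WT replicates 1 to 3, against 324, 348 and 344 across the GOT1-/- ones, with no overlap. Slc7a5 gave 29.6 to 31.6% of that sum in WT and 38.9 to 39.5% in GOT1-/- libraries. Slc38a1 gave 7.35 to 8% in WT and 3.77 to 4.51% in GOT1-/- libraries, and Slc38a2 gave 10.7 to 11.6% and 6.41 to 7.18%. The share of Slc1a5 was 13.5 to 14% and 13.5 to 14.7%, which overlap. Neither the sum nor the shares were corrected for the length trend, and with that correction neither Slc38a1 nor Slc38a2 was called.

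The genes whose levels across the 6 libraries lay nearest to those of Slc7a5 were not transporters. Among 8377 other protein-coding genes with a mean of at least 10 CPM, Oaz1 (antizyme, an inhibitor of polyamine synthesis) differed least, by a root mean square of 0.025 log2 units after each gene was centred on its own mean. Atox1 (a copper chaperone), Tmed9 (a cargo receptor of the secretory pathway), Ndufa8 (a complex I subunit) and Mogs (an enzyme of glycoprotein trimming) followed, at 0.027 to 0.035. Slc3a2, its heavy chain, was in place 161 at 0.106, and Slc1a5 in place 474 at 0.166. This is a description over 6 libraries in 2 groups, in which any gene with a similar fold change lies near.

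Of 28 other plasma membrane transporter genes listed for neutral and cationic amino acids, 11 passed the filter, of which 4 were called higher and 2 lower, and 10 had no count in any library. Over all genes tested 22.9% were called higher and 21% lower, shares against which this and the other lists' counts are to be read; 2 of 11 lower is near that background. Slc16a10, an exporter of aromatic amino acids, fell from 62.9 ± 3.54 to 40.7 ± 1.6 CPM (means ± SD, n = 3 each; change of -0.63 on the log2 scale, adjusted p = 9.15e-06 by edgeR). Slc7a3, a further cationic amino acid transporter gene, rose from 6.47 ± 1.1 to 11.7 ± 2.86 CPM (0.85, adjusted p = 0.000601) and the glycine transporter gene Slc6a9 from 4.73 ± 1 to 7.73 ± 0.807 CPM (0.73, adjusted p = 0.00218). Slc43a2, a relative of Slc43a1, fell from 38.7 ± 0.935 to 31.6 ± 1.87 CPM (-0.29, adjusted p = 0.00847), a call lost after the length correction (adjusted p = 0.592). Of 5 acidic amino acid transporter genes only Slc1a1 passed the filter, and it fell from 2.98 ± 0.306 to 0.835 ± 0.162 CPM (-1.81, adjusted p = 3.94e-05 by edgeR). Slc6a9, Slc43a2 and Slc1a1 overlap exons of other counted genes on the opposite strand, and their counts are uncertain to that extent.

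Of 10 lysosomal transporter genes tested, 2 were called higher and 2 lower, shares near the 22.9% and 21% of all genes, so the counts are no result about this list. The lysosomal cystine exporter gene Ctns fell from 15.1 ± 1.21 to 10.9 ± 0.761 CPM (means ± SD, n = 3 each; change of -0.47 on the log2 scale, adjusted p = 0.00248 by edgeR), and the arginine-sensing carrier gene Slc38a9 from 18.4 ± 1.75 to 14.2 ± 0.833 CPM (-0.37, adjusted p = 0.00841; 0.954 after the length correction). Spns1, which encodes a lysosomal lysophospholipid transporter and no amino acid carrier, rose by 0.47 and Slc15a3, a peptide and histidine transporter gene, by 0.21 on the log2 scale, the latter with an adjusted p = 0.0468 by edgeR and an exon overlap with Tmem132a. Of these, 1 call was lost under 6 alternatives other than leaving out a library, and both under another. Of 10 mitochondrial amino acid carrier genes tested, 4 were called higher and 1 lower. The ornithine carrier gene Slc25a15 rose by 0.57 (adjusted p = 0.000106) and Slc25a29, for basic amino acids, by 0.96 (adjusted p = 0.000671). The serine transporter gene Sfxn1 rose by 0.20 (adjusted p = 0.0256), whereas its relative Sfxn3 fell by 0.26 (adjusted p = 0.0079) on the log2 scale.

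**Figure D5:**
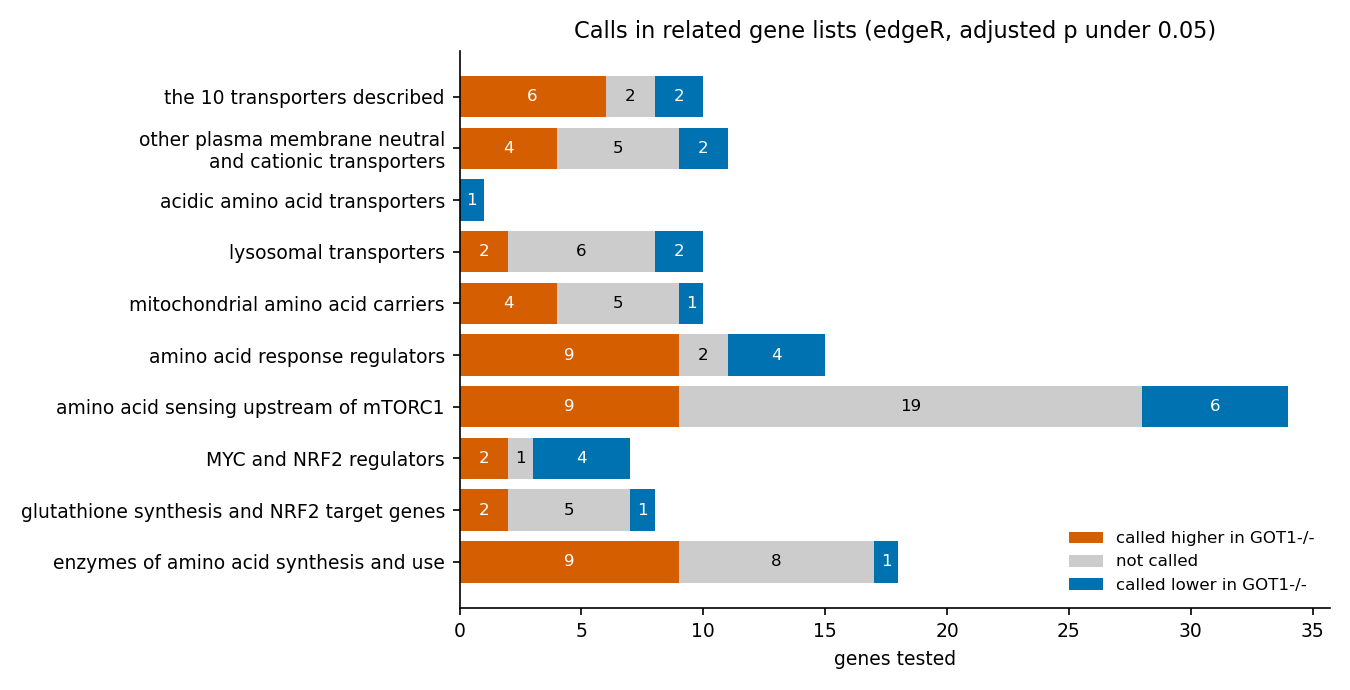
Number of genes tested in each list (horizontal axis) that were called higher, called lower or not called in GOT1-/- cells by edgeR at an adjusted p under 0.05. The amino acid response regulators have 9 of 15 higher and the genes for amino acid sensing 19 of 34 not called.

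Regulators known to act on these transporters did not all move with them. In the list of amino acid response regulators 9 of 15 tested genes were called higher and 4 lower. Atf4 itself was at 227, 213 and 202 CPM across WT replicates 1 to 3, against 259, 269 and 298 CPM across the GOT1-/- ones, without overlap (log2 fold change 0.36 with SE 0.07; edgeR adjusted p = 0.000738). Atf3, a related stress factor, rose from 8.93 ± 0.778 to 20.7 ± 2.54 CPM (1.21, adjusted p = 7.55e-07), Chac1, a glutathione-degrading ATF4 target, from 4.05 ± 0.707 to 8.4 ± 1.03 CPM (1.06, adjusted p = 7.3e-05), and Trib3, a feedback inhibitor, from 22.3 ± 2.26 to 35.6 ± 3.08 CPM (0.67, adjusted p = 3.94e-05). Cebpb rose from 20 ± 3.28 to 32.8 ± 2.3 CPM (0.71, adjusted p = 5.73e-05), but its exons overlap those of Tmem189, so how many counts belong to it is uncertain. The 4 called lower, named after their values were seen, were the kinase genes Eif2ak1, Eif2ak2, Eif2ak3 and Eif2ak4, the last of which encodes the amino acid sensor GCN2. With the length correction 3 of them were called, and Eif2ak3 was not (log2 fold change -0.135; edgeR adjusted p = 0.158).

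MYC and NRF2 are also known to raise amino acid transporter genes. Myc fell from 533 ± 69.3 to 413 ± 4.09 CPM (means ± SD, n = 3 each; change of -0.37 on the log2 scale, adjusted p = 0.00155 by edgeR) and Nfe2l2, which encodes NRF2, from 83.5 ± 4.47 to 57.3 ± 1.01 CPM (-0.54, adjusted p = 2.02e-05). Bach1, a repressor of NRF2 targets, fell from 28.7 ± 3.99 to 19.7 ± 1.28 CPM (-0.54, adjusted p = 0.000605), and Mycn rose from 0.461 ± 0.125 to 1.6 ± 0.118 CPM (1.81, adjusted p = 0.000386). In this list of 7 tested genes, 2 were called higher and 4 lower. The glutathione and NRF2 target list had 2 of 8 higher and 1 lower. Txnrd1, the thioredoxin reductase gene, rose from 122 ± 9.27 to 166 ± 5.95 CPM (0.45, adjusted p = 9.93e-05) and Srxn1 from 4.59 ± 0.952 to 9.98 ± 0.694 CPM (1.11, adjusted p = 2.76e-05), while Gsr fell from 143 ± 13.8 to 121 ± 6.65 CPM (-0.24, adjusted p = 0.0196). The glutathione synthesis genes Gclc and Gclm, chosen after their values were seen, were not called (adjusted p = 0.0524 and 0.436 by edgeR). With the length correction Gclc was called lower (log2 fold change -0.291, edgeR adjusted p = 0.0195) and Gclm was not called (adjusted p = 0.102).

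Of 18 tested genes for enzymes of amino acid synthesis and use 9 were called higher and 1 lower, the highest-ranked by adjusted p being genes of serine and asparagine synthesis: Phgdh (log2 fold change 1.00), Psph (0.92), Psat1 (0.73) and Asns (0.81), with adjusted p-values by edgeR from 1.15e-07 to 2.57e-06. Phgdh, Psat1 and Psph make serine from a glycolytic intermediate. The exons of Psph overlap those of Cct6a, transcribed the other way, which leaves its counts uncertain. Of 34 tested genes of amino acid sensing upstream of mTORC1, 9 were called higher, 6 lower and 19 not called. Sesn3 fell from 645 ± 26.5 to 376 ± 50.4 CPM (-0.78, adjusted p = 2.01e-06 by edgeR) and Sesn1 from 43.2 ± 0.221 to 31.1 ± 0.84 CPM (-0.47, adjusted p = 0.000123). Both encode sestrins, inhibitors of mTORC1. Sesn2, a further sestrin gene chosen after its values were seen, went the other way. It rose from 30.8 ± 0.955 to 38.6 ± 0.288 CPM (0.32, adjusted p = 0.00319 by edgeR). Sec13 and Lamtor1, which encode parts of the sensing machinery at the lysosome, rose by 0.47 and 0.40 on the log2 scale (adjusted p = 3.28e-05 and 0.000257).

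Markers of other cells moved with genotype beside these results. Of 4 tested mast cell and basophil markers all 4 were called higher (Prss34, Cpa3, Gata2 and Mcpt8), and the 6 listed summed to 3.03 to 3.85 CPM in WT and 12 to 12.9 CPM in GOT1-/- libraries. Of 7 tested macrophage, monocyte and neutrophil markers 4 were called higher and 1 lower, and the 8 listed summed to 25.7 to 27.1 CPM and 29.4 to 33.7 CPM. Among them Lyz2 rose from 4.02 ± 0.77 to 12.6 ± 1.69 CPM (SD, n = 3 each) and Cd68 fell from 19.6 ± 2.08 to 11.1 ± 1.18 CPM. No B cell marker was called among 3 tested (sum 2.36 to 3.24 and 3.42 to 3.45 CPM), and of 5 tested markers of CD8 T cells, NK cells and gamma-delta T cells 2 were higher and 1 lower (sum 70.4 to 76 and 58.9 to 62.7 CPM). No listed marker was at 0 in all libraries. The part of these cells in the transporter results was not tested. Of 13 T cell and Th17 markers 2 were called higher and 6 lower.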

How the data were processed

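The submitters' processing notes name the aligner STAR and build GRCm38; the sources used here do not give the STAR version, and the counting tool, strand setting and annotation are likewise not given. The deposited table holds raw counts, whole numbers of reads for each gene, and a gene length. The labels describe poly-A selection, and reads of similar or overlapping genes may be divided between them. Symbols of 27 genes had become dates and were restored from gene IDs. Coordinates are those deposited; start and end matched GENCODE M21 for 53585 of 54532 genes, all 10 transporters included, which gave exon counts and principal transcripts (lowest APPRIS rank, then the longest).

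The filter on low counts was filterByExpr with a minimum count of 10 and a total of 15. Scaling used trimmed means of M-values (factors 0.976 to 1.01). The two-sided quasi-likelihood test came from edgeR 4.0.16 (R 4.3.3), with genotype as the only term and Benjamini-Hochberg adjustment over all 12873 genes tested. A count of 3, the limit that a count of 0 allows, is 0.133 to 0.182 CPM. Within a genotype no pair of libraries was as alike as counting noise alone would leave it (chi-square 3.76 to 13.7 per degree of freedom). Length corrections regressed each library's deviation robustly on a natural spline of length (5 degrees of freedom). Alternatives were DESeq2 1.42.0, limma-voom (limma 3.58.1), other scalings and filters, protein-coding genes only, an adjusted p under 0.01, a replicate block and each library left out.

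The transporters, the 14 other gene lists and the tests were chosen with earlier results of these data known. Genes named are the 10 transporters, Got1, Atf4, Myc, Nfe2l2, up to 4 called genes with the smallest adjusted p of each list, and the 5 nearest to Slc7a5; others are said to be chosen after their values were seen. No protein sequences were used here.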

Additional observations from a re-analysis of the deposited data

How the results depend on the processing

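Of 178 comparisons of a transporter's fold change with an alternative, 170 kept direction and side of the threshold, 8 lost the call and none reversed. The 8 were Slc38a1 and Slc38a2, at -0.42 and -0.26 on the log2 scale as deposited. They were at -0.041 and -0.062 with the length correction, -0.064 and -0.001 with length and GC content, -0.135 and -0.117 with principal transcript length, and -0.042 and -0.060 with a replicate block and the length correction. Under each of these 4 corrections 0 transporters were called lower and 6 higher. The same 4 corrections left 1 of 2 other plasma membrane transporters lower, 1 of 2 lysosomal transporters lower and 3 of 6 sensing genes lower. Enzymes called lower went from 1 to 2 with length and GC content and to 3 under the other corrections of the 4. Response regulators called lower went from 4 to 3 with the length correction, to 2 with principal transcript length and to 5 with length and GC content. Lysosomal transporters called higher went from 2 to 1 with DESeq2, limma-voom, RLE scaling, no filter, protein-coding genes only and principal transcript length, and to 0 with length and GC content. Glutathione and NRF2 target genes called lower went from 1 to 2 with RLE scaling, the stricter filter, protein-coding genes only, length, length and GC content, the replicate block, and the block with length. The stricter filter (5 CPM in 3 libraries) left Slc7a11 and Slc43a1 untested. It left 2 other transporters higher instead of 4, 0 acidic transporters lower instead of 1, and 1 MYC and NRF2 regulator higher instead of 2, as did length and GC content. For markers it left 1 of 4 myeloid, 0 of 4 mast cell and 1 of 2 of the CD8 and NK list higher, the last also with protein-coding genes only. The genes whose calls the stricter filter took from these lists lay below its limit. They were removed untested, so their calls did not fail a second test. The causes of the changes under scaling and testing tool were not tested.

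With each library left out in turn, no transporter call changed. The ranges were 1 to 2 lysosomal transporters higher (1 without any library but GOT1-/- replicate 1), 2 to 4 mitochondrial carriers higher (2 without WT replicate 3 or GOT1-/- replicate 2), 3 to 7 sensing genes lower (3 without GOT1-/- replicate 2), and 1 to 2 MYC and NRF2 regulators higher (1 without WT replicate 2 or 3, or GOT1-/- replicate 1 or 2). They were 0 to 1 glutathione and NRF2 target genes lower (0 without WT replicate 2 or GOT1-/- replicate 1) and 0 to 1 enzymes lower (0 without WT replicate 2 or 3, or GOT1-/- replicate 1 or 3). The log2 difference of Slc1a5 over Slc1a4 ranged from -0.02 (without GOT1-/- replicate 3) to 0.055. Per principal transcript length 4 of 10 transporters kept their place in the WT order. Nothing in the labels says that replicate numbers pair the libraries. Deviations of same-numbered libraries correlated at 0.059, -0.026 and 0.033, and those of differently numbered ones at -0.103 to 0.067. Values this alike cannot decide whether libraries were paired. A replicate block called 3005 genes higher and 2787 lower, against 2944 and 2699 without it, and changed no transporter call. Depth limits Slc7a11 and Slc43a1, with 14 to 54 counts per library.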
